A study of Mus musculus with 39 samples.

Results

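The comparison described here is that of *Stat3* null with wild-type (WT) mouse epiblasts at embryonic day 5.5 (E5.5), the stage shortly after implantation at which the epiblast is a small cup of pluripotent cells. It rests on 5 of the 39 libraries of the series, 3 *Stat3* null (null 2, null 3 and null 4) and 2 WT (WT 1 and WT 2), out of 35 epiblast libraries and 4 libraries of epiblast-derived stem cells. In the null allele exons 20–22 are replaced by a cassette for neomycin resistance, and embryos of both genotypes came from natural matings between *Stat3* heterozygous CD1 mice, so that null and WT epiblasts alike developed in heterozygous mothers. Each library came from 1 epiblast, after extraembryonic ectoderm and visceral endoderm had been removed manually, and the genotype was read by PCR on the extraembryonic tissue. Which epiblasts were littermates is not given in the labels, so the p-values below measure only the spread between these 5 samples. The null libraries were selected on their count of *Pou5f1*, which encodes OCT4: a further E5.5 null library, null 1, was left out because it held almost none. Only 2 WT libraries belong to this stage.

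STAT3 is a transcription factor that lies latent in the cytoplasm until cytokines of the LIF and interleukin 6 family bind their receptors. These receptors share the signaling subunit gp130, encoded by *Il6st*, and activate JAK kinases, which phosphorylate STAT3 so that it forms dimers, enters the nucleus and binds DNA. In mouse embryonic stem cells this pathway sustains self-renewal in the naive state, and *Socs3*, which encodes a feedback inhibitor of the receptor complex, is its best known transcriptional target.

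Levels are given as CPM, the deposited counts scaled to 1000000 per library, always in the order null 2, null 3 and null 4, then WT 1 and WT 2. The 5 libraries held between 22941210 and 38635127 counts, so that the limit set by a count of 0 (3 counts) lay between 0.0776 and 0.131 CPM. They resembled each other closely, with Pearson correlations of log2(CPM + 1) across the tested genes between 0.945 and 0.962. The correlation was 0.953 between the WT libraries and 0.950 to 0.959 among the null libraries, and the highest value belonged to a pair of different genotype, null 3 and WT 2. A single long noncoding RNA gene, *Gm26917*, took between 7.94% and 11.5% of the counts. By *Xist* and *Uty*, null 4 was the only male epiblast among the 5.

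The libraries were first examined for the markers that define the epiblast and its neighbours. *Pou5f1*, whose level chose the libraries and is therefore only described, lay at 101, 236 and 178 CPM in null and at 170 and 293 CPM in WT, so that the lowest library kept held 101 CPM and the library left out, null 1, held 0.654 CPM. *Otx2*, a transcription factor of the postimplantation epiblast, lay at 60.5, 99.6 and 71.9 CPM in null against 89.1 and 144 CPM in WT, and was listed at 0 in null 1. *Fgf5*, the classical marker of this epiblast, lay at 100, 131 and 94.6 CPM against 95.4 and 139 CPM. All 5 libraries thus carried the epiblast genes, with overlapping groups for these 3 genes, and *Nanog* was present at low level in each (2.48, 5.52 and 3.42 CPM in null, 2.44 and 5.87 CPM in WT).

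The same libraries also held transcripts of the tissues that had been dissected away. The summed level of the 24 visceral endoderm genes examined was 18929, 23169 and 14250 CPM in null against 12055 and 13610 CPM in WT, and 427 CPM in null 1. Every null library kept was above both WT libraries, although null 4 exceeded WT 2 only narrowly. The 21 genes of extraembryonic ectoderm and trophoblast summed to 2352, 1064 and 2006 CPM in null and to 1783 and 658 CPM in WT. Here the libraries divided across genotypes, null 2, null 4 and WT 1 being high and null 3 and WT 2 low. *Cdx2*, a defining trophoblast factor, followed this division (45.7, 4.53 and 29.7 CPM against 18.6 and 2.53 CPM), as did *Elf5* (85.3, 12.03 and 57.5 CPM against 69.0 and 2.88 CPM). Genes of maternal decidua and blood were close to absent. Their sum lay between 11.6 and 31.7 CPM, with *Hbb-bs* and *Prl8a2* at 0 counts in all 5 libraries. In bulk RNA, fewer cells of a type and less RNA per cell cannot be told apart, and how far the visceral endoderm transcripts account for the gene-level values below was not tested beyond the fits with these sums as a term that are given beside them.

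**Figure D1:**
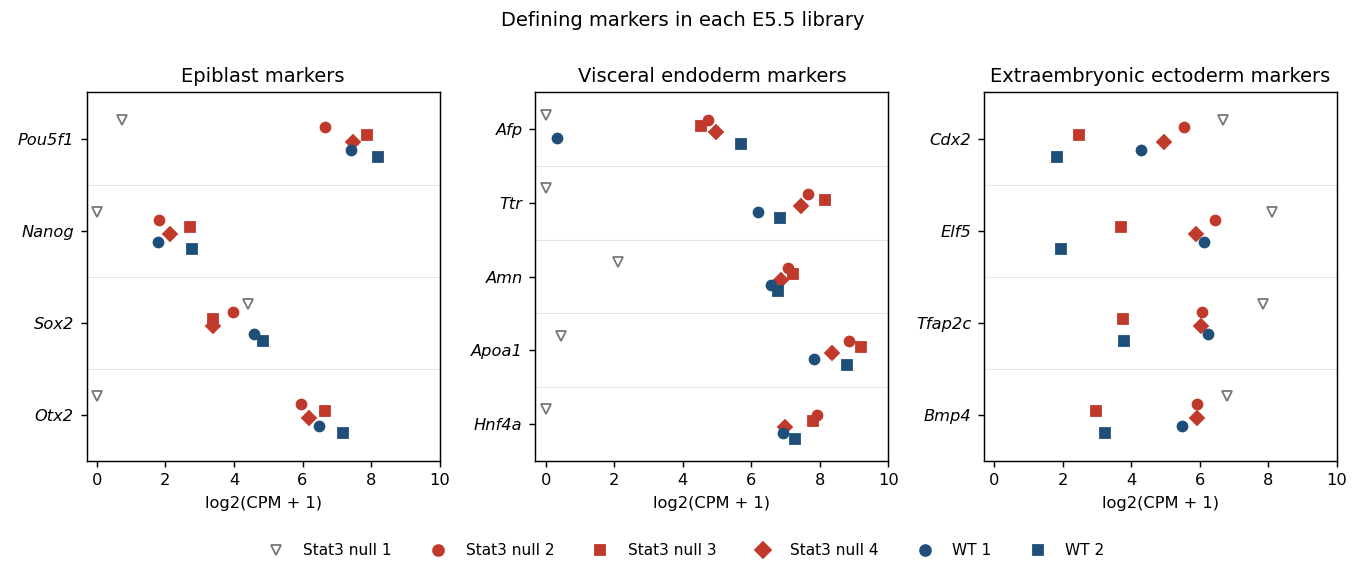
Levels of markers that define epiblast, visceral endoderm and extraembryonic ectoderm in each E5.5 library, on the horizontal axis as log2(CPM + 1), with 1 symbol per library. The 3 null libraries kept (red) and the 2 WT libraries (blue) share the range of *Pou5f1* and *Otx2*, whereas null 1 (open triangles), which the comparison leaves out, lacks most epiblast and visceral endoderm markers and holds the highest levels of *Cdx2*, *Elf5*, *Tfap2c* and *Bmp4*.

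Whether the loss of *Stat3* changes the transcriptome at this stage was then tested gene by gene. Of 47643 genes listed, 18217 had enough counts to be tested with edgeR's quasi-likelihood test, and none was called at an absolute log2 fold change over 1 and a Benjamini-Hochberg adjusted p under 0.05 (0 of 18217, or 0%), the smallest adjusted p being 0.9997. An unadjusted p under 0.05 was reached by 813 genes (4.46%), 441 of them higher in null (2.42%) and 372 lower (2.04%). The count of calls depended on the tool: DESeq2 called 69 genes, 48 higher and 21 lower, whereas voom with sample quality weights called 0 with 931 genes at an unadjusted p under 0.05. With 3 against 2 libraries, 3 residual degrees of freedom and a common biological coefficient of variation of 68.1%, all differences described below are values of these 5 epiblasts that did not pass edgeR's adjusted threshold. Every adjusted p lay between 0.9997 and 0.9999, so single genes are given by their values and log2 fold changes of null over WT with SE. An unadjusted p under 0.05 in edgeR serves only to count genes and to choose those named, and for the gene lists below a gene is counted as higher or lower at that threshold, against the background shares of 2.42% and 2.04%.

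*Stat3* itself (chr11:100885098-100939540, minus strand, GRCm38) was the first check of the labels. Its level was 15.3, 22.6 and 20.2 CPM in the null libraries and 49.4 and 39.3 CPM in the WT libraries, and no null library reached the lowest WT library. The means were 19.4 ± 3.72 CPM (SD, n = 3) and 44.4 ± 7.14 CPM (SD, n = 2), a log2 fold change of -1.21 (SE 0.26) that had an adjusted p of 0.0276 in DESeq2. A two-sided exact permutation test of log2 CPM gave p = 0.1, the smallest value that the 10 splits of 3 against 2 libraries allow. Transcript was thus still counted in every null library. In the principal annotated transcript, of 24 exons and 4516 bases, exons 20 to 22 hold 396 bases or 8.77% (numbered as in the annotation, which may differ from the numbering of the targeted allele), so reads on the other exons could still be counted. The last exons of *Stat3* also share bases with *Stat5a* on the opposite strand, and whether the counting used strand is not given in the sources used here.

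The components upstream of STAT3 were examined next. Of 9 cytokines of the LIF and interleukin 6 family, only *Lif* and *Clcf1* had enough counts to be tested. *Lif* lay at 2.01, 0.661 and 2.25 CPM in null and at 1.13 and 2.64 CPM in WT, and *Il6* and *Osm* were at 0 counts in all 5 libraries. Among the receptors, *Il6st* lay at 36.3, 25.3 and 45.4 CPM in null and at 41.3 and 22.7 CPM in WT. *Lifr*, the receptor chain specific to LIF, lay at 24.0, 9.69 and 35.6 CPM against 28.4 and 26.0 CPM. None of the 7 receptor genes tested reached an unadjusted p under 0.05. Among the kinase genes, *Jak1*, a principal partner of gp130, lay at 101, 82.9 and 107 CPM in null and 97.5 and 72.2 CPM in WT, with overlap, and none of the 4 members reached an unadjusted p under 0.05.

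Of the 7 STAT genes, 1 besides *Stat3* reached an unadjusted p under 0.05. Above WT without overlap lay 2 of the 7, beside 9.6% of all genes tested. *Stat5b*, which encodes a STAT activated mainly by growth hormone, prolactin and cytokines of other receptor families, lay at 43.4, 54.9 and 42.0 CPM in null and at 23.9 and 29.6 CPM in WT, with no overlap. Its log2 fold change was 0.79 (SE 0.22). It was 0.50 with the visceral endoderm sum as a term and 0.52 with null 1 included, where *Stat5b* lay at 14.3 CPM, and in neither fit did it keep an unadjusted p under 0.05, which was also lost without WT 1 (0.68) and in the fit of all 34 epiblast libraries (0.80). Its neighbour *Stat5a* lay at 10.2, 10.51 and 8.67 CPM in null against 5.60 and 7.91 CPM in WT, likewise without overlap but not at an unadjusted p under 0.05. *Stat6*, which acts downstream of interleukin 4, ranged from 10.53 to 27.1 CPM in null and from 15.8 to 20.2 CPM in WT, so the groups overlapped. In the later libraries no STAT gene was higher at an unadjusted p under 0.05. At E6.5 0 of 7 were higher and 1 was lower, beside 4.76% and 3.51% of all genes. At E7.5 0 of 7 were higher and 3 were lower, beside 8.81% and 10.9%.

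Among 18 inhibitors and transcriptional targets of STAT3, 0 were higher and 1 was lower at an unadjusted p under 0.05, and the median log2 fold change was -0.07 beside -0.01 over all genes tested. The lower gene was *Pim2*, which encodes a serine/threonine kinase that promotes survival and growth. It lay at 84.7, 142 and 62.1 CPM in null and at 180 and 283 CPM in WT, with every null library below both WT libraries. The log2 fold change was -1.27 (SE 0.34), and at E6.5, in 8 null and 9 WT epiblasts that the choice of libraries did not use, it was -0.56, again at an unadjusted p under 0.05. The paralogs *Pim1* and *Pim3* showed no such gap, with 52.5, 47.9 and 38.6 CPM for *Pim1* in null and 39.5 and 62.4 CPM in WT. *Socs3* was scarce in all libraries, at 2.96, 1.39 and 3.49 CPM in null and 10.7 and 4.15 CPM in WT. The groups did not overlap, but the log2 fold change of -1.53 (SE 0.66) did not reach an unadjusted p under 0.05 and rested on WT 1, without which it was -0.64. *Ptpn11*, encoding the phosphatase SHP2 that joins gp130 to ERK signaling, lay at 174, 164 and 181 CPM in null against 135 and 147 CPM in WT (log2 fold change 0.28, SE 0.13), without overlap but likewise short of that threshold.

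**Figure D2:**
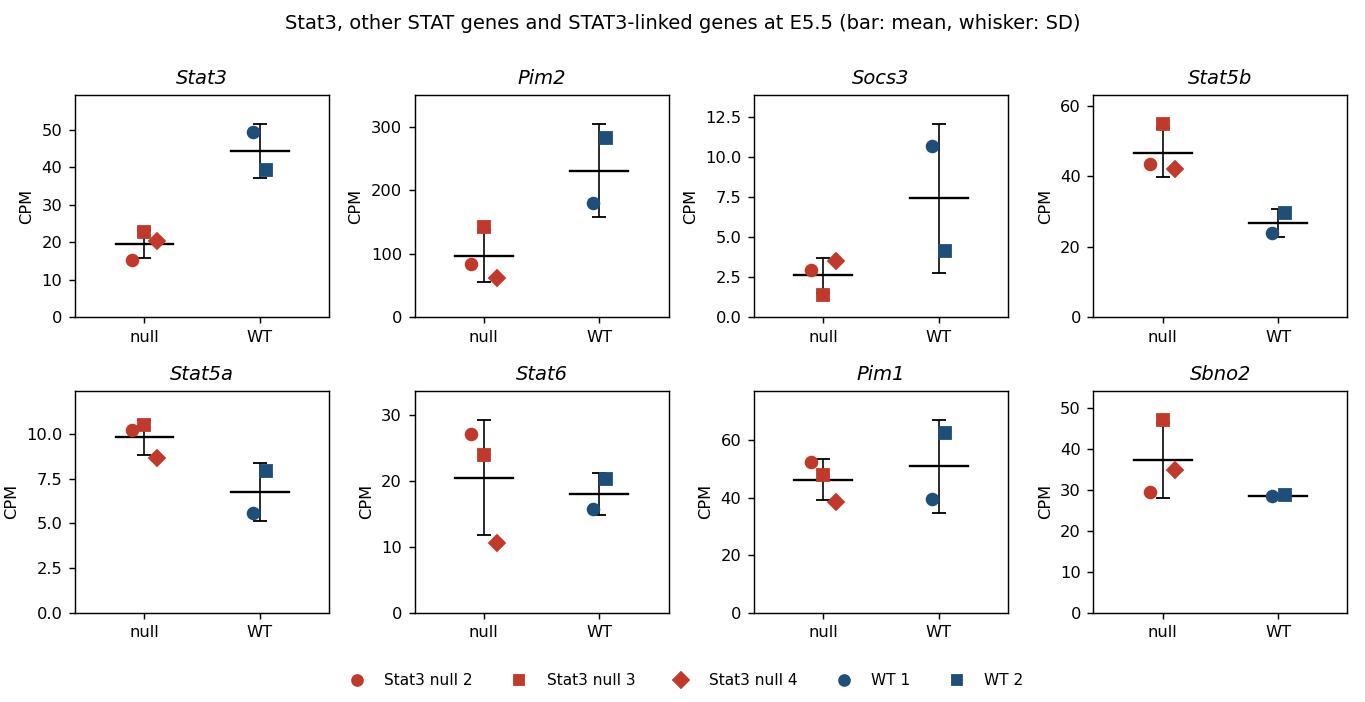
Levels of *Stat3*, other STAT genes and genes linked to STAT3 in each of the 5 E5.5 libraries, in CPM on axes that start at 0, with 1 symbol per library, the group mean as a bar and the SD as whiskers. The null libraries lie below both WT libraries for *Stat3*, *Pim2* and *Socs3*, above them for *Stat5b*, *Stat5a* and *Sbno2*, and overlap with them for *Stat6* and *Pim1*.

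The promoters of this group were searched for the palindrome TTCNNNGAA, the core letters of a STAT element, and for its longer form TTCCNGGAA, which is a subset of it. Since both read the same on either strand, 1 search covers both strands. Of the 18 genes, 15 had a RefSeq promoter, and the 250 bases before the start held TTCNNNGAA in 2 of them, *Socs3* and *Sbno2*, and TTCCNGGAA in *Sbno2* alone. Over all 32851 RefSeq promoters the shares of single promoters were 7.02% and 0.913%, and over the 14170 promoters of genes tested at E5.5 they were 5.94% and 1.03%. The 15 genes have 19 promoters, so a share of genes is not directly comparable with these, and 2 of 15 is too few to read. The promoter of the target known best, *Socs3*, and the 2 alternative promoters of *Sbno2*, which encodes a corepressor induced by STAT3, are shown from RefSeq (GRCm38.p6) because they carry the letters, 5′ to 3′ on the minus strand on which both genes lie, with TTCNNNGAA in capitals.

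*Socs3*, chr11:117969367-117969616: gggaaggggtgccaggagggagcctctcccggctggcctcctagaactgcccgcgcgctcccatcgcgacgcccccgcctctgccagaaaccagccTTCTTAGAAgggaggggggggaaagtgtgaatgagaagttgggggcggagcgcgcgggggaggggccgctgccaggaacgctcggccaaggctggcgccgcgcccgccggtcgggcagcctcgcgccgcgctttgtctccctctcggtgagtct

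*Sbno2*, chr10:80102703-80102952: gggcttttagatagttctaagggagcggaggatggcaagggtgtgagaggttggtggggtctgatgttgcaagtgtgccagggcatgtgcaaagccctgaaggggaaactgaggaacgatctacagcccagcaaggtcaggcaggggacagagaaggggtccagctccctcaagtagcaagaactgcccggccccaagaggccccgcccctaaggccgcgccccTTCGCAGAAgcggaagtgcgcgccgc

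*Sbno2*, chr10:80101188-80101437: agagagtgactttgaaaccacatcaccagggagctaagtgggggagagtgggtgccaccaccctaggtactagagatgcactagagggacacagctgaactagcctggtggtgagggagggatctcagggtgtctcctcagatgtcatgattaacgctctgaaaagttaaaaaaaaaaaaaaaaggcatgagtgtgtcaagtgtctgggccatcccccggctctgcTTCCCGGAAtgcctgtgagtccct

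The match began 154 bases before the start of *Socs3*, and 26 and 24 bases before the starts of *Sbno2*. In contrast to *Socs3*, *Sbno2* lay higher in null, at 29.4, 47.1 and 34.9 CPM against 28.4 and 28.7 CPM in WT, though not at an unadjusted p under 0.05. The 2 genes that hold the letters therefore lay on opposite sides of WT in these epiblasts. A match describes letters in this window and is not evidence of binding.

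The 12 genes with the smallest p among those higher in null, for which the groups did not overlap, are described next. Their high levels chose them, so the values describe the 5 libraries and the independent readings are those at E6.5 and E7.5. Several are known from visceral endoderm, liver or kidney. *Creb3l3*, a membrane-bound transcription factor of liver and gut, lay at 43.9, 78.9 and 41.3 CPM in null and at 14.4 and 13.6 CPM in WT (log2 fold change 1.95, SE 0.34). *Slc2a2*, encoding the glucose transporter GLUT2, lay at 13.7, 24.0 and 16.9 CPM against 1.17 and 3.45 CPM (2.98, SE 0.56). *Hsd17b2*, a steroid dehydrogenase, lay at 17.1, 24.0 and 21.97 CPM against 4.02 and 6.08 CPM (2.05, SE 0.35). All 3 genes were highest in null 3, the library with the largest visceral endoderm sum. Null 4 and WT 2, however, had similar sums (14250 and 13610 CPM) and differed in each of these genes. Null 4 held 41.3, 16.9 and 21.97 CPM of *Creb3l3*, *Slc2a2* and *Hsd17b2*, and WT 2 held 13.6, 3.45 and 6.08 CPM. How far these genes follow the sum was not tested. In null 1, where the visceral endoderm sum was 427 CPM, *Slc2a2* was at 0, *Creb3l3* at 0.654 CPM and *Hsd17b2* at 1.36 CPM. The same holds for *Dpp4*, a cell surface peptidase, which lay at 243, 248 and 173 CPM in null and 98.4 and 126 CPM in WT but at 0.463 CPM in null 1 (0.97, SE 0.20).

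The other genes included 2 that null 1 held at similar levels, *Zc3h11a* and *Hist2h2ac*. *Zc3h11a*, encoding a zinc finger protein of mRNA export, had the smallest p of all genes tested. It lay at 156, 137 and 151 CPM in null, at 137 CPM in null 1, and at 38.2 and 63.4 CPM in WT (log2 fold change 1.53, SE 0.22). Its exons overlap those of *Gm38394* and *Zbed6* on the same strand, and *Gm38394*, which also shares near-identical sequence, overlapped between the groups (250, 136 and 181 CPM in null, 338 and 200 CPM in WT), so the division of reads among these genes is uncertain. *Hist2h2ac*, a replication-dependent H2A histone gene with near-identical copies, lay at 216, 256 and 183 CPM in null, 210 CPM in null 1 and 95.6 and 121 CPM in WT (0.995, SE 0.18). *Tbx3*, a T-box factor expressed in naive pluripotent cells and also in extraembryonic endoderm, lay at 138, 97.5 and 81.7 CPM against 41.9 and 48.1 CPM (1.22, SE 0.24), with 12.97 CPM in null 1. The remaining 5 genes, *Tgm1*, *Fmo1*, *Rhox6*, *Ctsb* and *Lrba*, had log2 fold changes between 0.75 and 1.69, the lower end belonging to *Ctsb*, which encodes the lysosomal protease cathepsin B.

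The 12 genes were chosen by p in these same 5 libraries, so the further E5.5 fits are no independent reading of them. The summed visceral endoderm level itself lay higher in every null library kept than in WT. With this sum as a term in the fit, all 12 genes kept an unadjusted p under 0.05, and all 12 had smaller fold changes. The log2 fold change was then 1.29 for *Creb3l3*, 0.54 for *Dpp4* and 0.96 for *Tbx3*. *Hist2h2ac* fell from 0.995 to 0.61, whereas *Hsd17b2* went from 2.05 to 1.92 and *Slc2a2* from 2.98 to 2.496. *Zc3h11a* had almost the same value (1.52). The drop was thus not confined to the genes known from visceral endoderm, liver or kidney. With null 1 included, 2 of the 12 kept it, *Zc3h11a* and *Hist2h2ac*, and in 1 fit of all 34 epiblast libraries *Hist2h2ac* and *Lrba* kept it. DESeq2 called 9 of the 12, beside 69 of the 18210 genes it tested. At E6.5, 10 of the 12 had the same sign, beside 57.9% of the 16273 genes tested at both stages, and 3 of them reached an unadjusted p under 0.05: *Creb3l3* (1.83), *Tbx3* (1.502) and *Lrba* (0.35). At E7.5, in 3 null and 9 WT epiblasts, 3 of the 12 had the same sign, beside 44.2% of the 17111 genes tested at both stages, and *Dpp4* was called in the opposite direction (log2 fold change -3.60, adjusted p = 0.0272 in edgeR).

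The 12 genes chosen in the same way on the lower side included *Stat3* and were otherwise of a different kind. *Fat1*, encoding a giant protocadherin of epithelial junctions, varied least among the null libraries, at 415, 415 and 416 CPM in null, 423 CPM in null 1, and 627 and 683 CPM in WT. *Fat1* was chosen by its p in these libraries, which favours even values. Neither this evenness nor the alternative fits, which share these libraries, are independent readings. The log2 fold change was -0.67 (SE 0.10) and kept an unadjusted p under 0.05 under all 17 alternatives. At E6.5 it was 0.02 (SE 0.08). *Marcks*, encoding an actin-linked substrate of protein kinase C, lay at 52.9, 54.8 and 62.6 CPM in null and at 92.6 and 114 CPM in WT (-0.87, SE 0.17), and at E6.5 its log2 fold change was -0.33, also at an unadjusted p under 0.05. Neither gene overlapped between the groups. *Flnc*, encoding the actin crosslinker filamin C, lay at 25.7, 44.5 and 29.0 CPM against 115 and 63.9 CPM (-1.46, SE 0.33). *Dppa5a*, a pluripotency-associated RNA-binding protein gene with several near-identical copies, lay at 40.5, 38.6 and 32.6 CPM against 67.4 and 72.9 CPM (-0.93, SE 0.18).

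A second set of lower genes was scarce in null and uneven in WT, with *Prl3d1*, *Prl3d3* and *Pfpl* at or near 0 in null. *Prl3d1*, which encodes a placental lactogen of trophoblast giant cells, was at 0.436, 0 and 0 CPM in null and at 43.0 and 19.8 CPM in WT. *Prl3d3*, its near-identical neighbour, was at 0.436, 0 and 0.155 CPM against 18.0 and 7.14 CPM, and reads of the 2 genes cannot be separated with confidence. *Pfpl* was at 0 counts in each null library and at 10.8 and 1.51 CPM in WT, at least 59.8-fold lower at 3 counts per library. This bound rested on WT 1: without that library it was 14.7-fold, and *Pfpl* no longer had an unadjusted p under 0.05. Placental lactogen transcripts were therefore counted in both WT libraries and barely in null, a division that differs from that of *Cdx2* and *Elf5*. *Spn*, which encodes the leukocyte sialoglycoprotein CD43, lay at 0.828, 1.92 and 1.01 CPM in null and at 26.7 and 6.61 CPM in WT (-3.76, SE 0.71). *Pecam1*, a gene of endothelium and early pluripotent cells that also stood in the list for maternal decidua and blood, where it was the single lower gene of 5 tested, lay at 2.35, 2.68 and 1.99 CPM against 25.04 and 6.36 CPM, and without WT 1 it no longer had an unadjusted p under 0.05. For all 5 of these genes WT 1 held more than WT 2. *Celf5* and *Cacna1b*, both best known from neurons, had log2 fold changes of -2.07 (SE 0.46) and -1.92 (SE 0.45), the former with more in WT 2. Of the 12 lower genes, 10 could be tested at E6.5, where 6 had the same sign, beside 57.9% of all genes tested at both stages. Of these, 3 had an unadjusted p under 0.05 (*Stat3*, *Marcks* and *Cacna1b*). At E7.5, 7 of 10 had the same sign, beside 44.2%, with 2 of these at an unadjusted p under 0.05. The 1 gene called there was *Stat3*, beside 1.17% of all genes.

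Pluripotency genes were then read as groups. Of 12 core genes, 0 were higher and 1 was lower at an unadjusted p under 0.05, with 10 negative values and a median of -0.26 that moved to -0.05 without WT 2, -0.12 without null 2 and -0.48 without WT 1. The lower gene was *Sox2*, the partner of OCT4, at 14.7, 9.42 and 9.37 CPM in null and 23.1 and 27.7 CPM in WT, with no overlap (log2 fold change -1.20, SE 0.31). Null 1 held 20.1 CPM of *Sox2*, which is also expressed in extraembryonic ectoderm. At E6.5 the *Sox2* log2 fold change was 0.05 (SE 0.17). *Zfp281*, a zinc finger factor of primed pluripotency, lay at 83.4, 103 and 98.3 CPM against 123 and 113 CPM (-0.33, SE 0.16), a gap that did not reach an unadjusted p under 0.05. Of 20 formative and primed genes 17 had negative values, with a median of -0.23, and 2 were lower at an unadjusted p under 0.05. *Dnmt3l*, a cofactor of the de novo DNA methyltransferases and the only lower gene among 10 DNA methylation enzymes, lay at 55.2, 124 and 74.8 CPM in null and at 160 and 168 CPM in WT (-0.96, SE 0.31). *Lef1*, a transcriptional effector of Wnt signaling, lay at 24.9, 70.1 and 49.8 CPM against 80.3 and 127 CPM (-1.11, SE 0.40), and at E6.5 its log2 fold change was -0.90, also at an unadjusted p under 0.05. This tilt of the formative list at E5.5 rested on WT 2, the library with the most *Pou5f1*. Without it the median was 0.05, and without WT 1 it was -0.53. At E6.5 the formative median was -0.28 with 10 of 20 genes lower at an unadjusted p under 0.05, beside 3.51% of all genes. At E7.5 it was 0.92 with 11 of 20 higher, beside 8.81%. The naive list showed no common direction at E5.5, with 14 members tested, 7 values of each sign, a median of 0.01 and only *Tbx3* (higher) and *Dppa5a* (lower) at an unadjusted p under 0.05. At E6.5 the naive median was 0.63 with 5 of 12 genes higher and 1 lower at that threshold. At E7.5 it was -0.76 with 0 of 12 higher and 3 lower. *Klf4*, a naive factor and target of LIF signaling in stem cells, lay at 7.37, 4.397 and 1.92 CPM in null and 13.8 and 4.75 CPM in WT, and *Esrrb* followed the extraembryonic ectoderm genes (97.7, 6.28 and 84.8 CPM against 44.2 and 0 CPM).

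Visceral endoderm genes leaned to the higher side. Of 24 genes 7 were higher and 1 was lower, 22 had positive values, 10 lay above and 1 below WT without overlap (beside 9.6% and 10.2% of all genes tested), and the median was 0.47. *Ttr*, the thyroid hormone carrier transthyretin, lay at 199, 283 and 174 CPM in null and at 72.6 and 114 CPM in WT (log2 fold change 1.22, SE 0.26). *Cubn*, the endocytic receptor cubilin, lay at 5515, 6321 and 3801 CPM against 3347 and 2813 CPM (0.74, SE 0.21). *Apoe* lay at 1433, 2074 and 1330 CPM against 811 and 1127 CPM (0.72, SE 0.22), and *Soat2*, *Apom* and *Spink1* were also among the 7. The 2 negative values belonged to *Cer1* and *Hhex*, which mark the anterior visceral endoderm. *Foxa2*, which the study names beside CER1 as such a marker, had a positive value, so these markers had no common direction. *Cer1*, a secreted antagonist of Nodal, lay at 1.61, 5.06 and 12.7 CPM in null and at 22.03 and 29.7 CPM in WT (-2.00, SE 0.72). *Hhex* lay at 7.93, 18.9 and 13.3 CPM against 26.5 and 18.8 CPM, with overlap. *Afp* ranged from 21.95 to 30.6 CPM in null but was at 0.263 CPM in WT 1 and 50.5 CPM in WT 2. The count of 7 was 4 without null 3, 12 without null 4, 3 without WT 1, 11 without WT 2, 0 with null 1 and 0 in the fit of all 34 epiblast libraries, and it was 1 with the visceral endoderm sum as a term, a sum made of these same genes. At E6.5 the median of this list was 1.18, but only 2 of 23 genes were higher and 0 lower at an unadjusted p under 0.05, beside 4.76% and 3.51% of all genes. At E7.5 the median was -3.00, with 1 of 24 higher and 16 lower, beside 8.81% and 10.9%.

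Of 20 extraembryonic ectoderm and trophoblast genes tested, 2 were higher and 1, *Prl3d1*, was lower at an unadjusted p under 0.05. *Peg10*, an imprinted gene of placenta, lay at 745, 328 and 557 CPM in null and at 247 and 93.0 CPM in WT (log2 fold change 1.64, SE 0.55), and at E6.5 its log2 fold change was 2.04, again at an unadjusted p under 0.05. *Rhox6*, an X-linked homeobox gene of trophoblast and germ cells, lay at 21.3, 26.3 and 23.7 CPM against 6.504 and 9.46 CPM (1.57, SE 0.30). Within each genotype *Peg10* had the same order of libraries as *Cdx2*, and null 3, which was low in *Cdx2*, nevertheless held more *Peg10* than either WT library. *Rhox6* was instead highest in null 3 and in WT 2. The list median, 0.44 at E5.5, was 2.32 at E6.5, with 12 of 17 genes higher and 0 lower at an unadjusted p under 0.05. At E7.5 it was -2.06 with 1 of 17 higher and 10 lower.

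The signaling pathways that pattern the epiblast gave few values apart from background. In the Nodal pathway 0 of 18 genes were higher and 1 was lower at an unadjusted p under 0.05, *Foxh1*, the DNA-binding partner of SMAD2 and SMAD3, at 19.96, 23.8 and 26.2 CPM in null and 37.97 and 52.3 CPM in WT (log2 fold change -0.96, SE 0.24). *Nodal* itself lay at 19.5, 42.6 and 20.01 CPM against 24.2 and 28.8 CPM, with overlap. At E6.5 3 of 18 Nodal pathway genes were higher and 0 were lower at an unadjusted p under 0.05. The lower value of *Foxh1* was thus not repeated there at that threshold. At E7.5 4 of 17 were higher and 2 were lower. In the BMP pathway 12 of 14 values were positive, with a median of 0.40, and *Id1*, a direct target of BMP signaling, was the single gene at an unadjusted p under 0.05, at 42.4, 29.8 and 27.3 CPM against 9.29 and 18.2 CPM (1.26, SE 0.36). The BMP median was 0.18 without WT 2, 0.08 with null 1 and 0.07 with the extraembryonic ectoderm sum as a term, and *Bmp4*, a ligand made by extraembryonic ectoderm at this stage, divided the libraries as *Cdx2* did (58.8, 6.81 and 58.9 CPM against 43.7 and 8.44 CPM). At E6.5 the BMP median was 0.38 with 4 of 14 genes higher and 0 lower at an unadjusted p under 0.05. At E7.5 it was -0.60 with 0 of 14 higher and 5 lower. Of 21 genes of the FGF and ERK pathway, 0 were higher and 1 was lower. *Dusp4*, encoding an ERK phosphatase induced by ERK itself, lay at 40.8, 49.7 and 53.6 CPM in null and 74.4 and 86.0 CPM in WT (-0.75, SE 0.19). At E6.5 its log2 fold change was -1.15, again at an unadjusted p under 0.05. *Fgf4* lay at 16.3, 44.8 and 35.5 CPM against 40.1 and 59.9 CPM, with overlap.

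Of 21 Wnt pathway genes 1 was higher and 2 were lower at an unadjusted p under 0.05. *Sp5*, a direct Wnt target and primitive streak factor, lay at 10.9, 24.4 and 15.1 CPM in null and at 6.43 and 6.05 CPM in WT (log2 fold change 1.41, SE 0.43). *Fzd10*, a Wnt receptor, lay at 0.654, 1.49 and 0.569 CPM against 6.58 and 2.57 CPM (-2.37, SE 0.86), and *Wnt3a* was at 0 counts in null and at 0.639 and 0.598 CPM in WT, at least 6.03-fold lower. Of 13 primitive streak genes *Sp5* and *Mixl1* were higher, the latter at 51.5, 68.9 and 33.8 CPM against 15 and 34.3 CPM (1.06, SE 0.41) with slight overlap. With the visceral endoderm sum as a term the log2 fold changes were 0.14 for *Mixl1* and 0.98 for *Sp5*, and neither gene was then higher at an unadjusted p under 0.05, nor with null 1 included or in the fit of all 34 epiblast libraries. *Mixl1* also lost it without null 2, null 3 or WT 1, and *Sp5* without WT 2. *Wnt3a* was the lower gene of that list, and *T* was at 0 counts in every null library and at 0.457 CPM in WT 2. At E6.5 *Mixl1* and *Sp5* had the opposite sign, with log2 fold changes of -1.66 and -0.64. No neuroectoderm gene of 11 reached an unadjusted p under 0.05, and the list median of 0.55 had no stable sign, at -0.03 without WT 1, 0.06 without null 2, 1.08 without null 3 and -0.37 with voom. Among 9 germ cell genes, *Ddx4* was higher, at 48.1, 37.5 and 41.2 CPM against 17.1 and 31.9 CPM, and *Ifitm3* was lower, at 3.62, 4.60 and 3.55 CPM against 6.39 and 14.5 CPM. *Dppa3* (Stella) lay at 0, 3.77 and 0.776 CPM in null and at 7.74 and 24.5 CPM in WT (-3.39, SE 1.42), without overlap but short of an unadjusted p under 0.05.

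Genes of the p53 response and apoptosis leaned to the lower side. Of 21 genes 0 were higher and 4 were lower at an unadjusted p under 0.05, 17 values were negative, 8 lay below and 0 above WT without overlap (beside 10.2% and 9.6% of all genes tested), and the median was -0.38. *Zmat3*, a p53 target that encodes an RNA-binding protein, lay at 36.4, 29.3 and 36.0 CPM in null and at 54.3 and 56.7 CPM in WT (log2 fold change -0.73, SE 0.20), and had a log2 fold change of -0.32 at E6.5, where it too had an unadjusted p under 0.05. *Mdm2*, the ubiquitin ligase that degrades p53 and is induced by it, lay at 57.8, 52.1 and 62.8 CPM against 81.1 and 78.0 CPM (-0.48, SE 0.17). Neither gene overlapped between the groups. *Cdkn1a*, encoding the cell cycle inhibitor p21, lay at 5.97, 0.959 and 1.11 CPM against 13.5 and 7.77 CPM (-2.03, SE 0.84), and *Trp53* lay at 87.7, 100 and 92.5 CPM against 101 and 129 CPM. The lower members thus include effectors of p53 as well as its inhibitor. The median stayed negative when each library was left out in turn, weakest without WT 2 (-0.16), and the count of 4 became 1 without null 3 and 2 without null 2. At E6.5 the list median was -0.08 with 3 genes lower, and at E7.5 it was 0.07.

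STAT3 is also known for actions on mitochondria, so genes of respiration were read as well. The 13 protein-coding genes of mitochondrial DNA summed to 13956, 13655 and 13634 CPM in null and to 15362 and 14155 CPM in WT. Of these genes 12 had negative values and 6 lay below WT without overlap (beside 10.2% of all genes tested), but the median was only -0.11, -0.04 without WT 1 and -0.18 without WT 2, and 0 reached an unadjusted p under 0.05. *mt-Cytb*, a subunit of complex III, lay at 2029, 1746 and 1855 CPM against 2164 and 2123 CPM (log2 fold change -0.21, SE 0.10), and at E6.5 the list median was 0.07. Nuclear genes of complex I had a median of 0.04, with 1 of 37 higher at an unadjusted p under 0.05 (*Ndufa8*, log2 fold change 0.61) and 2 lower (*Ndufs1*, -0.37, and *Ndufs4*, -0.58). Complexes II to V had a median of 0.01 with *Atp5e* alone lower among 39 genes (-0.93). Of 26 genes of mitochondrial biogenesis and the TCA cycle, *Ogdh*, a subunit of the oxoglutarate dehydrogenase, was the only one at an unadjusted p under 0.05 (0.33).

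Lists for growth and stress were read last. None of 27 proliferation genes and none of 20 glycolysis genes reached an unadjusted p under 0.05 in edgeR, with medians of -0.02 and -0.09, and the same held for 13 heat shock and stress genes (-0.07) and 21 genes of epithelium, junctions and matrix (-0.02). In the MYC family *Myc* lay at 39.8, 36.8 and 53.9 CPM in null and at 67.3 and 23.4 CPM in WT, and *Mxd1*, a MYC antagonist, was the 1 gene of 10 at an unadjusted p under 0.05, higher at 12.5, 13.2 and 26.2 CPM against 4.25 and 9.21 CPM (log2 fold change 1.36, SE 0.50). Of 16 immediate early genes, which respond within minutes to handling as well as to signals, *Jun*, *Jund* and *Fosb* were lower and *Ier3* was higher, and the 3 lower genes became 1 without null 2 and 1 with the visceral endoderm sum as a term. *Jun* lay at 10.46, 14.0 and 9.65 CPM in null and at 26.1 and 16.8 CPM in WT (-0.94, SE 0.34), and *Fosb* was at 9.25 CPM in WT 1 and under 0.4 CPM in the other 4 libraries. Among 13 interferon and antigen presentation genes *Ifitm3* and *Ifitm2* were lower and 0 were higher, with 0 lower without null 2 or without WT 2.

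**Figure D3:**
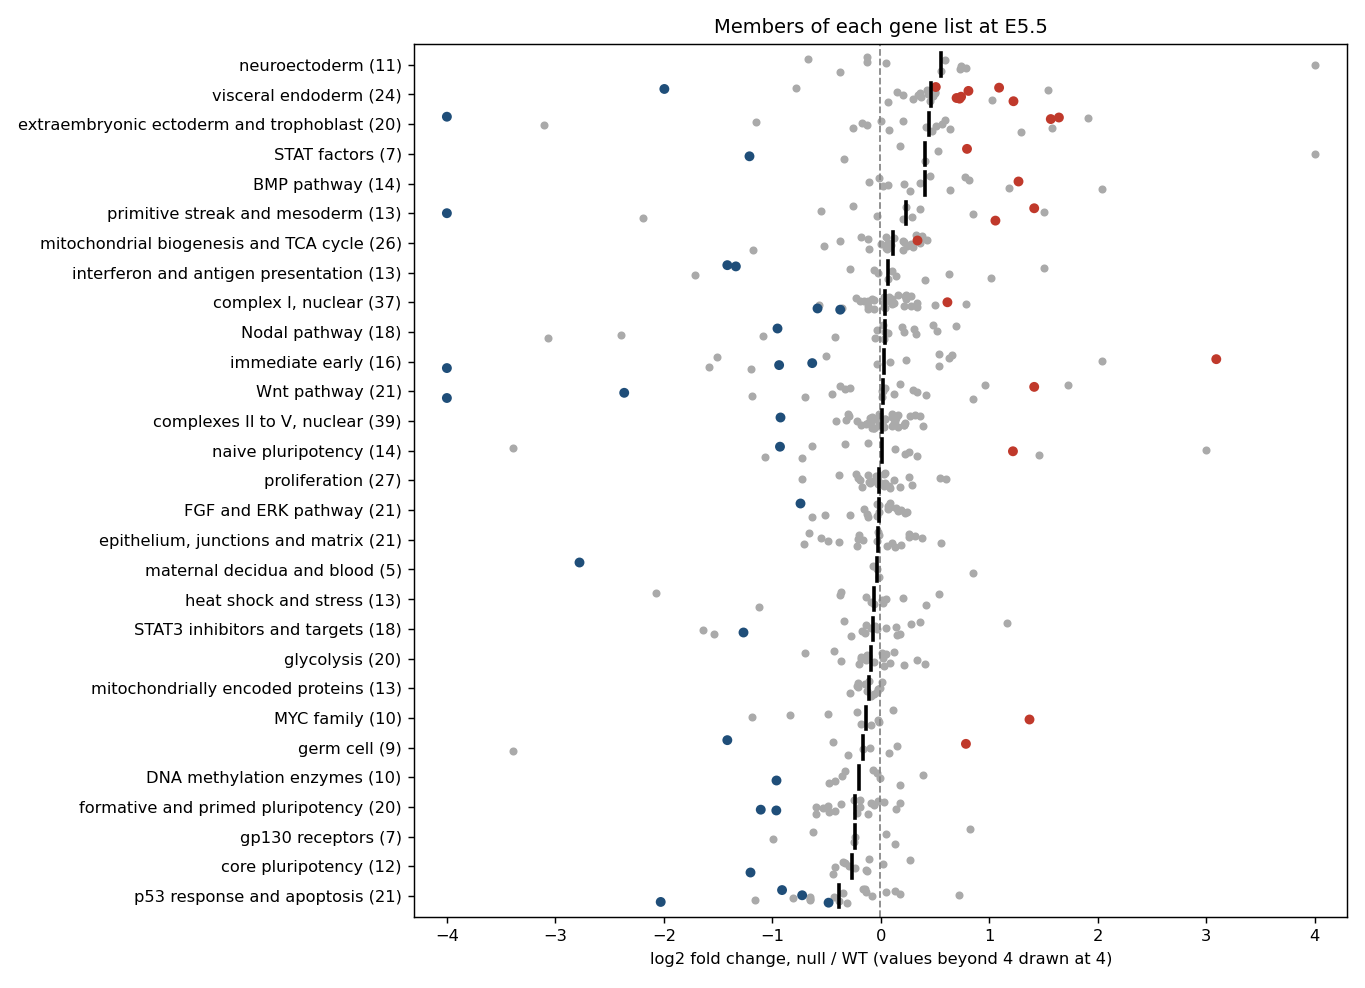
Log2 fold change of null over WT at E5.5 for each tested member of the lists with at least 5 tested genes, with the number tested in brackets, a black bar at the list's median, and values beyond 4 drawn at 4. Red and blue points have an unadjusted p under 0.05 (higher and lower in null), grey points do not; lists are ordered by median, from neuroectoderm (0.55) and visceral endoderm (0.47) to p53 and apoptosis (-0.38), and the neuroectoderm median was -0.03 without WT 1.

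Finally, the genes singled out at E5.5 were set beside the same contrast at later stages, in libraries that the choice did not use. At E6.5 0 of 17095 genes were called, and 814 (4.76%) were higher and 600 (3.51%) lower at an unadjusted p under 0.05. At E7.5 231 of 19680 genes were called (1.17%), 16 higher (0.0813%) and 215 lower (1.09%), and 8.81% and 10.9% were higher and lower at an unadjusted p under 0.05. *Stat3* was lower at each stage, with log2 fold changes of -1.21, -1.60 and -3.31, and was called at E7.5 (adjusted p = 0.00808 in edgeR). A test of whether the genotype effect differed between E5.5 and E6.5, as an interaction in edgeR, called 3 of 22577 genes (0.0133%), all with the lower value at E5.5. For *Fat1* this interaction had an adjusted p = 0.709 and for *Sox2* an adjusted p = 0.9999 in edgeR, so for neither gene did the difference between the stages pass the threshold.

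**Figure D4:**
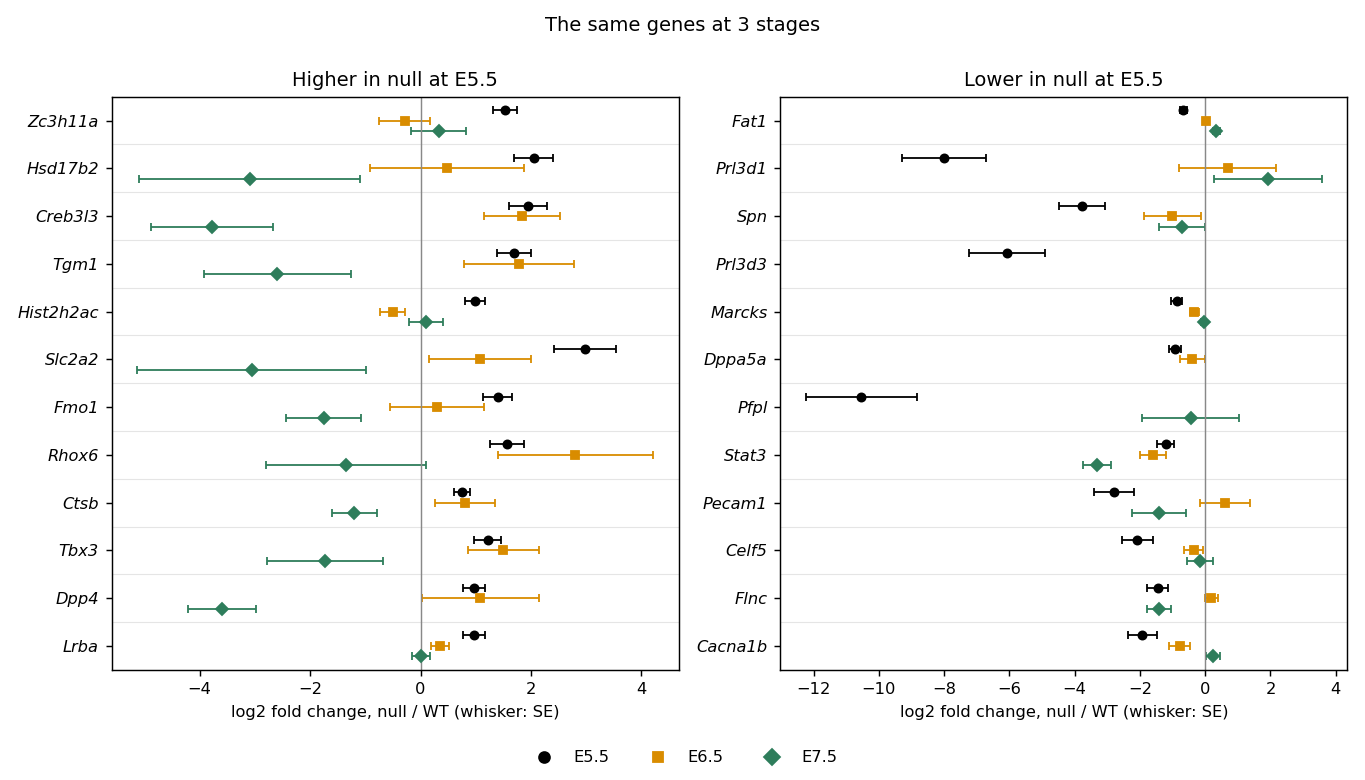
Log2 fold change of null over WT at E5.5 (black circles), E6.5 (orange squares) and E7.5 (green diamonds) with SE as whiskers, for the 12 genes with the smallest p in each direction at E5.5; a missing symbol means that the gene was not tested at that stage, and fitted values of genes at or near 0 in null (*Prl3d1*, *Prl3d3*, *Pfpl*) depend on the prior count. In the left panel 10 of 12 genes lie on the same side at E6.5 and 3 of 12 at E7.5; in the right panel *Stat3* is lower at each stage.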

How the data were processed

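Single epiblasts were profiled by bulk RNA-seq (PicoPure RNA isolation, SMARTer Stranded Total RNA-Seq v2 Pico libraries). Per the submitters' processing notes, the authors trimmed reads with Trim Galore, aligned them to GRCm38 (mm10) with HISAT2, counted them per gene with StringTie and deposited raw counts, without normalization. The annotation version and the strand setting are not given in the sources used here. Of 47643 genes, 47224 were matched to GENCODE vM21 for positions.

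The *Pou5f1* level chose the libraries, and the members and gene lists were chosen with earlier results of these data known. The test was the robust quasi-likelihood test of edgeR 4.0.16 under R 4.3.3 (two-sided, TMM, filterByExpr by group with a minimum count of 10 and a minimum total of 15, Benjamini-Hochberg over all genes tested), and a call needed an absolute log2 fold change over 1 and an adjusted p under 0.05. The SE is the log2 fold change divided by the square root of F. Genes were named if they were *Stat3*, among the 12 with the smallest p in each direction (groups not overlapping, mean of at least 5 CPM in the higher group, no predicted genes or pseudogenes), among the 4 members of a list with the smallest p, or defining for a list. *Gm26917*, *Gm38394* and further list members were named after their values were seen. Alternatives were DESeq2 1.42.0, limma 3.58.1 voom with sample quality weights, other normalization, filters and dispersions, a joint fit, null 1 included, Y chromosome genes as a term and each library left out. Terms for the visceral endoderm and extraembryonic ectoderm sums were added after seeing the data. Shared exons were read from the annotation and near-identical transcripts found with blastn 2.17.0 (at least 95% identity over 50% of the transcript and 200 bases). Motifs were searched in RefSeq promoters, and the tests were tried on simulated data. Intervals and limits from 3 counts cover counting error only. Some members of the lists are counted but not reported here by name.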

Additional observations from a re-analysis of the deposited data

Results flagged for a closer look

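For 3 genes the difference between null and WT was called as unlike at E5.5 and E6.5 by the interaction of genotype with stage in edgeR, and each call was lost when 1 or more libraries were left out. They lie outside the rule for named genes and are named because their values were seen. *Nkd2*, an antagonist of Wnt signaling that binds Dishevelled, was at 0 counts in null 2, null 3 and null 4 and at 2.82 and 1.93 CPM in WT 1 and WT 2, at least 23.2-fold lower at 3 counts per library (interaction adjusted p = 0.00459), although null 1 held 1.17 CPM. Its interaction adjusted p was 0.9999 with null 1 included and 0.0628 without null 4. *Lrrc8c*, a subunit of the volume-regulated anion channel, was at 0 counts in all null libraries, null 1 included, and at 2.59 and 2.18 CPM in WT, at least 23.3-fold lower (interaction adjusted p = 0.0186), a call lost in 4 of the 5 fits without 1 library (all but that without WT 2), with adjusted p from 0.0525 to 0.187. *Adamts6*, a secreted metalloprotease, was at 0 counts in null and at 0.226 and 1.12 CPM in WT, at least 6.59-fold lower (interaction adjusted p = 0.0209), with a bound of 2.2 without WT 2. It lost the call in 4 of the 5 fits (all but that without WT 1), with adjusted p from 0.0897 to 0.201, and was too scarce to be tested at E5.5 alone. None of the 3 exceeded 2.82 CPM in either WT library, and their fitted log2 values depend on the prior count.

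The library left out, null 1, held 100.007 CPM of *Cdx2* and 273 CPM of *Elf5*, above the highest of the 2 WT libraries for either gene (18.6 and 69.0 CPM), while its *Pou5f1*, *Otx2*, *Fgf5* and *Nanog* were at or near 0. Its extraembryonic ectoderm and trophoblast genes summed to 4728 CPM, against 658 to 2352 CPM in the 5 libraries compared.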

How the results depend on the processing

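The edgeR count of 0 calls at E5.5 was kept with RLE size factors, without a filter on low counts, with a mean count of at least 50, without genes over 1% of counts, without robust dispersions, with voom weights, with null 1, with the Y chromosome genes as a term, and with either marker sum as a term, the last 2 having been chosen after seeing the data. DESeq2 called 69 genes (48 higher, 21 lower) and the fit of all 34 epiblast libraries called 6, all lower. Leaving out each library in turn gave 0 to 1 calls, the 1 being *Rpl26* without WT 1, which lay at 472 CPM in WT 2 and at 18.8 to 37.1 CPM in the other 4 libraries. The interaction of genotype with stage called 3 genes, 55 with DESeq2 (36 higher, 19 lower), and 0 to 6 when each E5.5 library was left out, with 0 without null 4 and 6 without WT 2. Among 1331 values of the 77 genes with a fold change, 1 changed sign, *Amn* with null 1 included (-0.0358), and 21 passed the adjusted threshold (19 in DESeq2 and 2 in the joint fit). Since edgeR's adjusted p was near 1 for every gene at E5.5, staying short of that threshold says nothing of stability. Of the 60 of these genes with an unadjusted p under 0.05, 7 kept it under every alternative. It was lost by 35 with null 1, by 31 with the visceral endoderm sum, by 30 in the joint fit, by 12 with the Y chromosome genes, by 7 with the extraembryonic ectoderm sum and by 9 (without null 3) to 18 (without WT 1) when a library was left out. A fit without 1 WT library leaves a lone WT sample, which is assumed to vary like the null libraries. No paired analysis was possible because the labels do not say which epiblasts were littermates, and a replicate number is not described as a pairing. Depth sets a limit of 0.0776 to 0.131 CPM for genes at 0 counts. The causes of the differences between tools were not tested.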
